A study of Mus musculus with 3 samples.

Results

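The GATA transcription factors and their FOG cofactors were examined in MEL cells as 8 genes of 21851 annotated protein-coding genes. The members were the 6 GATA factor genes (Gata1, Gata2, Gata3, Gata4, Gata5 and Gata6) and the 2 FOG genes, Zfpm1 for FOG1 and Zfpm2 for FOG2. They were chosen as a gene family, with earlier results of these data known. For each member, accessible sites were taken at its promoter, inside the gene and up to 100 kb on either side, in the mm10 build of the mouse genome. The data were DNase-seq peak lists, in which sites open to DNase I appear as 150-bp peaks. MEL is an immortalized mouse erythroleukemia line, which models red cell precursors that are blocked before maturity and is not normal marrow. All 3 libraries were of this line, with no treatment named, and came from 2 biological replicates. The replicate 1 list was called on 2 merged libraries and the replicate 2 list on 1 library.

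GATA factors are zinc finger proteins that bind GATA motifs, and the FOG proteins bind the GATA factors rather than DNA and act as coactivators or corepressors. In blood, GATA2 maintains stem and progenitor cells, and GATA1 takes over its sites as red cells mature, an exchange known as the GATA switch. GATA3 is best known from T cells, while GATA4, GATA5 and GATA6 act in heart, gut and other endoderm-derived or mesodermal tissues, where FOG2 is a partner of GATA4. FOG1 is the partner of GATA1 in the red cell and megakaryocyte lineages.

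The replicate 1 list held 281600 peaks and the replicate 2 list 89046 peaks. The peak score is the authors' value on a scale of 1 to 150, with a median of 73 in replicate 1 and 32 in replicate 2. Scores are therefore read within a list, and a score in one list is not compared with the score in the other. The number of reads behind each list is unknown, and the samples could not be tested against each other, since each biological replicate gave 1 list. The windows of the members held 436 peaks in replicate 1 and 144 in replicate 2. A promoter peak, with its centre no more than 1000 bp from a protein-coding transcript start, was present for 58.3% of all protein-coding genes in replicate 1 and for 49.4% in replicate 2, the background for the marker counts that follow. The red cell label was checked against erythroid markers: leaving out Gata1, which is itself a member, 6 of 7 had a promoter peak in replicate 1 and 5 of 7 in replicate 2, while Slc4a1, the band 3 anion exchanger of mature red cells, had none in either list. Of the 4 T cell markers 1 had a promoter peak in replicate 1 and 0 in replicate 2, as did 1 and 0 of the 4 heart muscle markers. All 4 megakaryocyte markers and 3 of 4 macrophage and granulocyte markers had one in both lists. Mast cells, which also use GATA1 and GATA2, had 2 of 4 markers with a promoter peak in replicate 1 and 1 in replicate 2, and endoderm and liver had 1 of 4 in each list. With 4 genes a list, such counts do not stand apart from the background. Of the replicate 2 peaks in the window of a member, between 81.8% (Gata3) and 100% overlapped a replicate 1 peak, against 94.7% of all replicate 2 peaks. In the other direction the shares were between 25.6% (Gata4) and 41.2% (Zfpm2), against 30.2% of all replicate 1 peaks.

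Among the members, a promoter peak was present at 4 of 8 members in replicate 1 and at 3 of 8 in replicate 2, against 58.3% and 49.4% of all protein-coding genes. Over the 8 genes the count was thus near that of genes in general and is no result about the family. Gata1 scored 141 in replicate 1 and 71 in replicate 2, and Zfpm1 scored 138 and 68. Both lay near the middle of the genes with a promoter peak, whose medians were 139 and 63. Gata2 scored 115 in replicate 1 and 20 in replicate 2, at the 18.4th and the 2.94th percentile of genes with a promoter peak. Gata3 scored 111 in replicate 1 and lacked a promoter peak in replicate 2. Gata4, Gata5, Gata6 and Zfpm2 had none in either list.

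**Figure D1:**
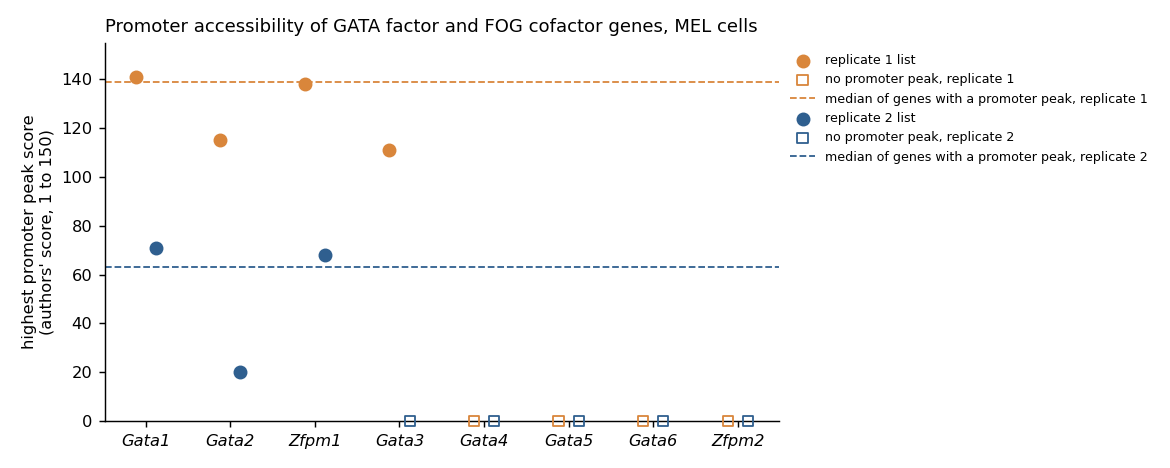
Highest promoter peak score (vertical axis, the authors' score) of each member in the replicate 1 list (orange) and the replicate 2 list (blue), with open squares at 0 where a list has no promoter peak and dashed lines at the median of all genes with a promoter peak. Gata1 and Zfpm1 lie close to both medians, Gata2 lies below them, and Gata4, Gata5, Gata6 and Zfpm2 have no peak in either list.

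Gata1 (chrX:7959260-7978071, minus strand), the master regulator of red cell development, had several high-scoring peaks near its start, among many lower ones. Its 52 replicate 1 peaks in the gene or between genes had a median of 67.5, below the 73 of that list. Its 15 such replicate 2 peaks had a median of 40, above the 32 of that list. The highest replicate 2 score of its window outside other genes lay in an intron, 3.64 kb downstream of the start of the main transcript, and was 86, with 147 for the overlapping replicate 1 peak. The next scored 73 in replicate 2 and 146 in replicate 1 and lay 3.58 kb upstream. These positions match elements known from mouse studies as the +3.5 kb intronic site and the −3.5 kb upstream enhancer. They stood at the 96.1st and the 91.3rd percentile of all replicate 2 scores, and at the 98.5th and the 98th percentile in replicate 1. Both replicate 2 peaks (chrX:7964196-7964345 and chrX:7971416-7971565) are printed with the promoter peak (chrX:7967936-7968085), because they differ in the GATA motifs they carry. Sequences are from the GRCm38 reference, on the strand of the gene, with GATA motifs in capitals, that is GATA after A or T and before A or G, on either strand, and likewise any E-box (CANNTG) that lies 7 to 9 bases before such a motif on its strand.
Gata1 intron, 3.64 kb downstream: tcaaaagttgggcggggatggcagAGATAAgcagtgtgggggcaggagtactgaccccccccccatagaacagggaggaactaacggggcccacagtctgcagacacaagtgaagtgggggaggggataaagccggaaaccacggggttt
Gata1 enhancer, 3.58 kb upstream: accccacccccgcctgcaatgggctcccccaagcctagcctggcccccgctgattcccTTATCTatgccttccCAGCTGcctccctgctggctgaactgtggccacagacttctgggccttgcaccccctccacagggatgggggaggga
Gata1 promoter, 0.1 kb upstream: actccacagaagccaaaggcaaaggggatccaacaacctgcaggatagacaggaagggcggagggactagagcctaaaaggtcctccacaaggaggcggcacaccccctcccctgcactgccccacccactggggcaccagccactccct

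The intronic peak of Gata1 held 1 GATA motif, AGATAA. The upstream enhancer peak also held 1, read as TTATCT on this strand, with the E-box CAGCTG 9 bases away. That arrangement is the composite element bound by complexes of GATA1 with TAL1. The promoter peak printed above held no GATA motif. A neighbouring promoter peak, 0.56 kb upstream, held 2 GATA motifs and scored 68 in replicate 2 and 141 in replicate 1. Peaks 1.38 kb upstream and 1.72 kb downstream scored 39 and 47 in replicate 2, and the replicate 1 peaks that overlapped them scored 144 and 123. A further element known from mouse studies, 25 kb upstream, was represented by 3 peaks in replicate 2, with scores of 69, 51 and 40, and by 2 in replicate 1, with scores of 143 and 133. None of these 5 peaks held a GATA motif.

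The Gata1 locus has 3 annotated coding starts, of which 1 belongs to the basic set used for the promoter count. The most upstream start, 10.2 kb before it, had no peak within 1000 bp in either list. The nearest peak to that start lay 6581 bp away in replicate 2 and 6041 bp in replicate 1. The most downstream start lay inside the first intron, beside the intronic peak described above, so that peak was also 104 bp from an annotated start. In replicate 1 a continuous enriched region, called a hotspot by the authors, covered 1984 bp over the main start, and in replicate 2 it covered 359 bp.

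Gata2 (chr6:88193891-88207032, plus strand), the stem and progenitor cell factor, showed another arrangement: weak promoter peaks and stronger distal ones. The promoter peaks scored 17 and 20 in replicate 2 and between 96 and 115 in replicate 1. Its downstream alternative start, 4.44 kb into the gene, had no peak within 1000 bp in either list, and the nearest replicate 2 peak was 4284 bp away. The highest score of the window outside other genes was 67 in replicate 2, with 142 for the overlapping replicate 1 peak, 4.12 kb upstream of the start. The intronic peak 9.32 kb downstream scored 63 and 139. The Gata2 gene is known to be controlled by GATA factors at elements 77, 3.9, 2.8 and 1.8 kb upstream and 9.5 kb downstream of its start. The 9.5 kb element is needed for blood stem cell formation in mice. The peaks at 3 of these elements, printed below, carried GATA motifs (chr6:88203136-88203285, chr6:88189696-88189845, chr6:88116456-88116605 and chr6:88116856-88117005, plus strand, GRCm38).
Gata2 intron, 9.32 kb downstream: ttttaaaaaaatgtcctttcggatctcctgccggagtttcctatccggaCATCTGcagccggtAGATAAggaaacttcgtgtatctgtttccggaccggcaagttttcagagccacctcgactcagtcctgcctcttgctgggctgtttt
Gata2 upstream, 4.12 kb: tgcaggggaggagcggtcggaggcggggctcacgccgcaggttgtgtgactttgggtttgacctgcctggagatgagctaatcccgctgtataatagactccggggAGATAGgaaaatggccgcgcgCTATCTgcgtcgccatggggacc
Gata2 upstream, 77.4 kb: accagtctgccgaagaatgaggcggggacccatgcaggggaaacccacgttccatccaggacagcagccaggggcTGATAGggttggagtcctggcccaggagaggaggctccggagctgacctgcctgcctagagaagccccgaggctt
Gata2 upstream, 77 kb: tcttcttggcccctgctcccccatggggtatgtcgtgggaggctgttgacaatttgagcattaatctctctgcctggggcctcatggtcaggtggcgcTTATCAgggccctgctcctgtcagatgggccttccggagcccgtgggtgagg

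The intronic peak of Gata2 held the E-box CATCTG 8 bases before AGATAA, the composite arrangement seen at the Gata1 enhancer. The peak 4.12 kb upstream held 2 GATA motifs, AGATAG and, on the other strand, CTATCT. The pair of peaks near 77 kb upstream held 1 each and scored 35 and 28 in replicate 2, near the middle of that list at the 55.1st and the 41.7th percentile. In replicate 1, 4 peaks within 1 kb of that position scored 130, 127, 125 and 64. They stood at the 88.6th, 86.9th, 85.7th and 41.1st percentile of that list. The elements 2.8 and 1.8 kb upstream were seen less clearly. Replicate 1 had a peak of 105 at 2.74 kb and peaks of 90 and 50 at 1.98 and 1.72 kb upstream, of which the 90 held 2 GATA motifs. In replicate 2 the only peak within 1 kb of the 2.8 kb element was the one at 3.56 kb, which scored 24, and no peak lay within 1 kb of the 1.8 kb element.

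Gata2 also had a far upstream cluster of 4 replicate 2 peaks, 85.6 to 87.7 kb before the start, which scored 59, 63, 61 and 54. The overlapping replicate 1 peaks scored 136, 145, 142 and 137, so this cluster held the highest replicate 1 score of the Gata2 window outside other genes. A separate peak 69.7 kb upstream scored 57 in replicate 2 and 136 in replicate 1. Each of these 5 peaks scored above every promoter peak of Gata2 in the same list. The annotated start nearest to the cluster was that of the microRNA gene Mir6376, 1972 to 4052 bp from the peaks. Which gene the cluster acts on was not tested.

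Zfpm1 (chr8:122282141-122337251, plus strand), which encodes FOG1, had an open promoter and a series of open sites through its introns. Its promoter held 3 replicate 2 peaks and 4 replicate 1 peaks. Inside the gene, outside the promoter, lay 13 replicate 2 peaks and 43 replicate 1 peaks, the largest numbers of the 8 members. The highest replicate 2 scores of Zfpm1 were 80, at 39.7 kb downstream of the start, 79 at 2.85 kb and 69 at 27.3 kb. The overlapping replicate 1 peaks scored 147, 145 and 138. The peak at 2.85 kb held no GATA motif, the peak at 39.7 kb held 1 and the peak at 27.3 kb held 4, which is why the last of these is printed in contrast to the one at 39.7 kb (chr8:122309396-122309545 and chr8:122321736-122321885, plus strand, GRCm38, GATA motifs in capitals).
Zfpm1 intron, 27.3 kb downstream: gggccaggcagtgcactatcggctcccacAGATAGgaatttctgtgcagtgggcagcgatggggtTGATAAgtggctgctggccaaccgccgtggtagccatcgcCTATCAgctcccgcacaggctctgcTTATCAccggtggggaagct
Zfpm1 intron, 39.7 kb downstream: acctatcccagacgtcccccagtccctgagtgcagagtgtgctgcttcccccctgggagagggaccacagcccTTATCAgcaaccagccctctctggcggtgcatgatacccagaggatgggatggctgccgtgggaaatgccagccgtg

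The 4 motifs of the Zfpm1 peak at 27.3 kb were AGATAG and TGATAA on the strand of the gene, and CTATCA and TTATCA, which are TGATAG and TGATAA on the other strand. Further intronic peaks of Zfpm1 scored 51 at 41.9 kb, 49 at 12.2 kb and 47 at 44.3 kb in replicate 2, and 125, 145 and 137 in replicate 1. Zfpm1 and its flanks lie inside an annotated read-through gene, Gm20388 (chr8:119910841-124345722). For that reason the flanks held no peak classed as intergenic. With Gm20388 ignored, a choice made after the values were seen, 39 replicate 1 peaks and 8 replicate 2 peaks of the flanks became intergenic.

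**Figure D2:**
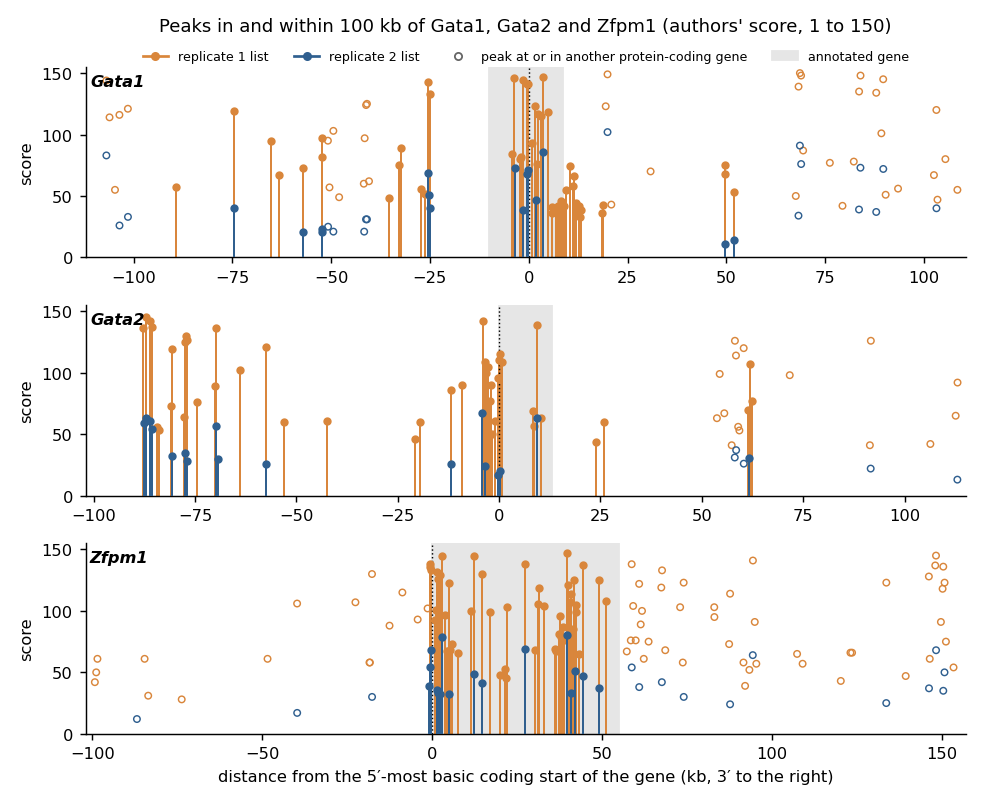
Peaks in and within 100 kb of Gata1, Gata2 and Zfpm1, by distance from the start in kb (horizontal) and the authors' score (vertical), with the replicate 1 list in orange and the replicate 2 list in blue. Filled points lie in the gene or between genes, open points at or in another protein-coding gene, and grey marks the annotated gene. Gata1 peaks cluster around its start, Gata2 peaks stand 4.12 kb and about 85 to 88 kb upstream and 9.32 kb downstream, and Zfpm1 peaks run through the gene.

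Gata3 (chr2:9857078-9890034, minus strand), the T cell and mammary factor, was the member of another lineage with open sites near those of the blood pair. Within 1000 bp of its basic start it had 3 peaks in replicate 1, with scores of 111, 109 and 47, and none in replicate 2. The nearest replicate 2 peak was centred 1070 bp upstream, just outside the limit, and scored 59, with 144 in replicate 1. An upstream coding start outside the basic set, 11.4 kb before, had peaks in both lists, the highest scoring 66 in replicate 2 and 143 in replicate 1. A peak 25.45 kb upstream scored 74 in replicate 2 and 147 in replicate 1, the highest of the Gata3 window, and held 1 GATA motif. Of the replicate 2 peaks of the Gata3 window, 18 lay in the gene or between genes, and 16 of them lay within 20 kb of the gene. The gene 9230102O04Rik lies within the annotated span of Gata3, on the same strand. Among basic starts, its start was the nearest to the peaks 10.01 to 11.43 kb upstream, at 4617 to 6037 bp. Which of the 2 genes those peaks act on was not tested.

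The GATA genes of heart and endoderm had no open promoter, and their highest-scoring sites lay away from the starts. For Gata4 (chr14:63198922-63271692, minus strand) the replicate 2 peak nearest to any of its 3 basic coding starts lay 6317 bp away and scored 11, and the nearest replicate 1 peak lay 5717 bp away and scored 60. For Gata5 (chr2:180325133-180334699, minus strand) the nearest replicate 2 peak was 12571 bp upstream and scored 32, and the nearest replicate 1 peak was 4729 bp downstream and scored 55. For Gata6 (chr18:11052064-11085635, plus strand) the nearest replicate 2 peak lay 12320 bp downstream and scored 11, and the nearest replicate 1 peak was 12280 bp downstream with a score of 74. The highest replicate 2 scores in the gene or between genes were 44 for Gata4, 58 for Gata5 and 26 for Gata6. Those sites lay 90.9 kb upstream of Gata4, 58.6 kb downstream of the start of Gata5 and 24.9 kb upstream of Gata6.

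Zfpm2 (chr15:40655035-41104592, plus strand), the FOG2 gene, had no called peak at either basic start. Its nearest replicate 2 peak to either start lay 288860 bp away, inside the gene, and scored 30, and its nearest replicate 1 peak lay 66860 bp away and scored 37. Across the 650 kb window it had 7 replicate 2 peaks and 17 replicate 1 peaks, with a highest score of 40 and 128. The FOG genes thus differed at their promoters in both lists: Zfpm1 had peaks of 138 and 68, and Zfpm2 had none.

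**Figure D3:**
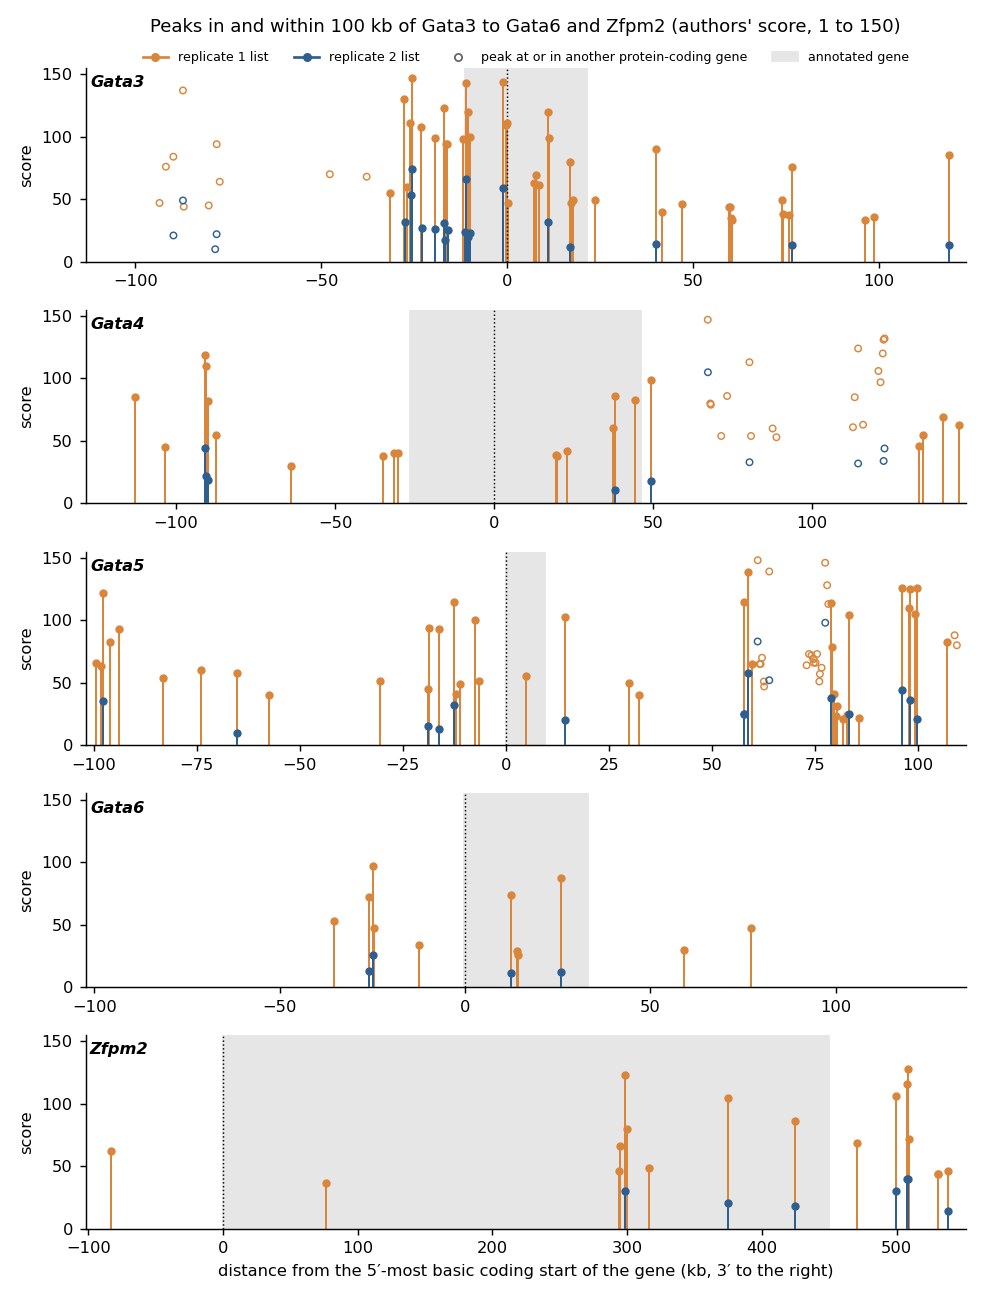
Peaks in and within 100 kb of Gata3, Gata4, Gata5, Gata6 and Zfpm2, drawn with the same axes, colours and symbols as for Gata1, Gata2 and Zfpm1. Gata3 has peaks of both lists around its upstream start and about 25 kb upstream, while no peak lies at the dotted start line of Gata4, Gata5, Gata6 or Zfpm2.

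The CpG content and the repeat content of the promoters were also measured, and their part in the promoter peaks was not tested. Gata1 had 16 CpGs within 500 bp of the start, Gata2 had 88, Zfpm1 had 135 and Gata3 had 46. Gata4, Gata5, Gata6 and Zfpm2, which had no promoter peak in either list, had 63, 69, 61 and 74. The median of all protein-coding genes was 47. Of 11208 genes with at least 46 CpGs, 79.9% had a promoter peak in replicate 1 and 74.2% in replicate 2. Of the 32-bp words within 1000 bp of the basic starts of those 4 members, between 87% and 100% occurred once in the genome. The lowest of these values belonged to the downstream start of Gata4.

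Peak numbers per window depended on the neighbouring genes. Gata1 had 90 peaks in replicate 1 and 32 in replicate 2, Gata2 had 59 and 22, and Zfpm1 had 106 and 30. Gata3 had 51 and 22, Gata4 had 39 and 10, Gata5 had 63 and 17, Gata6 had 11 and 4, and Zfpm2 had 17 and 7. The medians of all protein-coding genes were 49 and 16, so Gata5, which had no promoter peak, was above both. Of the Gata1 peaks, 38 in replicate 1 and 17 in replicate 2 lay at or in neighbouring protein-coding genes. Leaving such peaks out, Gata1 kept 52 and 15, Gata2 kept 44 and 17, and Gata5 kept 40 and 14, so by this count Gata5 lay close to Gata2. Within 20 kb of the gene the numbers were 39 and 9 for Gata1, 21 and 6 for Gata2, and 10 and 4 for Gata5.

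Peaks in the gene or between genes were also counted per 100 kb of window. For Gata1 and Gata2 together they numbered 22.2 in replicate 1 and 7.41 in replicate 2, against 10.1 and 3.21 for Gata4, Gata5 and Gata6. The last 3 genes were unlike each other. Gata5 had 40 and 14 such peaks in 210 kb, close to 44 and 17 in 213 kb for Gata2. Gata4 had 21 and 5 in 273 kb, and Gata6 had 11 and 4 in 234 kb. Per 100 kb, Gata3 had 17.6 and 7.73, which in replicate 2 was above the blood pair. Zfpm1 had 18.4 and 6.27, which counts no flank peak, and with Gm20388 ignored it had 33.7 and 9.41, above the blood pair and Gata3. Zfpm2 had 2.62 and 1.08. Peaks at or above the 75th percentile of each list scored at least 108 in replicate 1 and 50 in replicate 2. For Gata1 and Gata2 they were 28 of 96 and 13 of 32 peaks in the gene or between genes. The replicate 1 share was close to the share of all peaks that the limit itself sets. For Gata4, Gata5 and Gata6 they were 11 of 72 and 1 of 23. The highest scores were 139 and 58 for Gata5, 119 and 44 for Gata4, and 97 and 26 for Gata6. The 1 replicate 2 peak was thus of Gata5, and Gata6 had no such peak in either list. Peaks of 1 window share a region, so these numbers are descriptions of 8 loci and not replicated measurements.

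**Figure D4:**
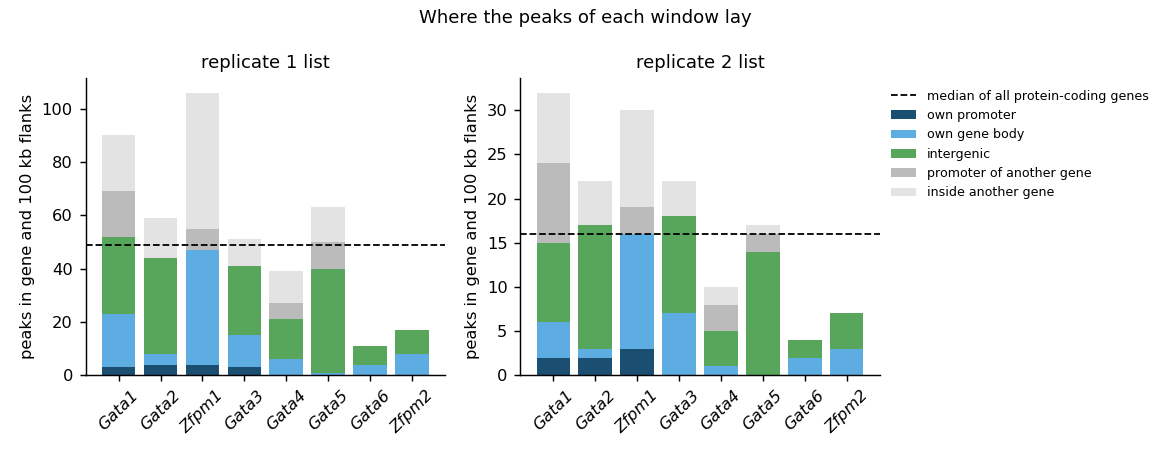
Peaks in each member and 100 kb either side (vertical axis, number of peaks) in the replicate 1 list (left) and the replicate 2 list (right), stacked by position, with a dashed line at the median of all protein-coding genes. Blue and green mark the member's own promoter, its gene body and intergenic sequence, and grey marks other genes, which supply 38 of the 90 replicate 1 peaks of Gata1.

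In the member windows the share of peaks with a GATA motif was near that over all peaks, somewhat below it in replicate 1. The replicate 1 share depended on the peak cut. It was 31.5% with the higher-scoring 50% and 34.8% at equal list length, settings for which the share over all peaks was not computed. Peaks of 1 locus are not independent, so these shares are descriptions. In the 150 bp around the peak centre, 26.1% of the member peaks in replicate 1 (114 of 436, Wilson 95% interval 22.2 to 30.5%) held at least 1, against 30.6% of all peaks. In replicate 2 the share was 34% (49 of 144, 26.8 to 42.1%), against 33.4%. In the gene and intergenic peaks of Gata1, Gata2 and Zfpm1 (for Zfpm1 without its flanks) it was 30.1% in replicate 1 (43 of 143, 23.2 to 38%) and 43.8% in replicate 2 (21 of 48, 30.7 to 57.7%). In those of the other 5 members it was 26.2% (34 of 130, 19.4 to 34.3%) and 31.3% (15 of 48, 19.9 to 45.3%). The intervals of the 2 sets overlapped in both lists. The E-box composite was present in 3 member peaks of each list. That was 0.688% in replicate 1 (0.234 to 2.00%) and 2.08% in replicate 2 (0.711 to 5.95%). The shares over all peaks, 0.925% and 1.24%, lay inside these intervals. The 3 peaks were at the Gata1 enhancer, in the Gata2 intron and 60.3 kb downstream of the start of Gata2. The last lay inside a neighbouring gene and scored 120 in replicate 1 and 26 in replicate 2.

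Of the 7 motifs searched, KLF and ETS motifs were picked out after their values were seen, because the intervals of the 2 sets of loci did not overlap in either list. The letters CCNCNCCC, bound by KLF factors such as the red cell factor KLF1, were found on either strand in 25.2% of the gene and intergenic peaks of Gata1, Gata2 and Zfpm1 in replicate 1 (18.8 to 32.9%) and in 45.8% in replicate 2 (32.6 to 59.7%). In those of the other 5 members they were found in 10.8% (6.52 to 17.3%) and 18.8% (10.2 to 31.9%), against 18.1% and 24.1% of all peaks. The letters GGAAGT, bound by ETS factors, went the other way, with 16.1% (11 to 23%) and 10.4% (4.53 to 22.2%) at Gata1, Gata2 and Zfpm1. They were found in 33.8% (26.3 to 42.3%) and 35.4% (23.4 to 49.6%) at the other 5, against 27.3% and 31.6% of all peaks. Base composition moved with these shares: the median GC content was 54% in replicate 1 and 57% in replicate 2 at Gata1, Gata2 and Zfpm1, and 48.7% and 50.3% at the other 5. Its part in the motif shares was not tested, and peaks of 1 locus are not independent.

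**Figure D5:**
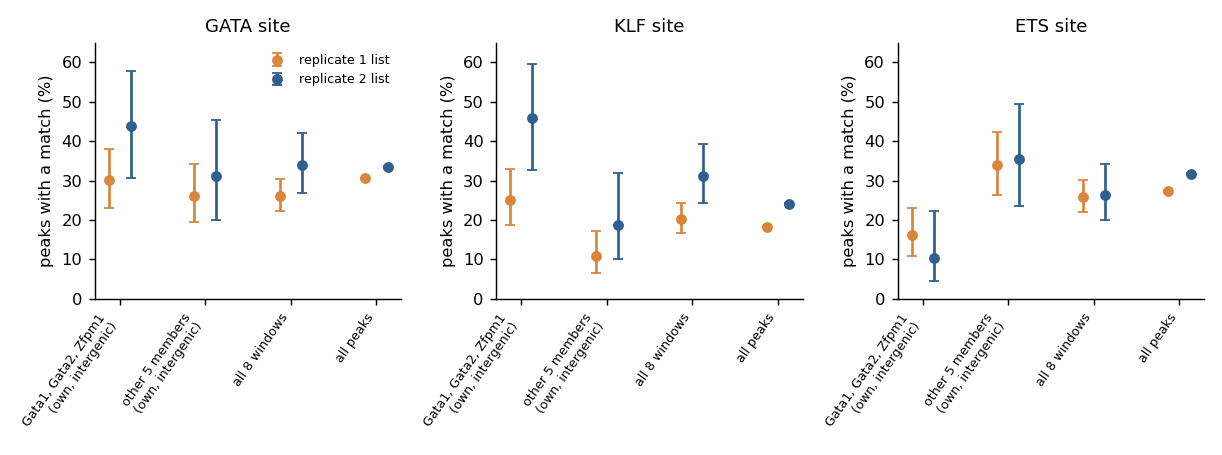
Share of peaks with a GATA, KLF or ETS motif (vertical axis, percent) for the gene and intergenic peaks of Gata1, Gata2 and Zfpm1, those of the other 5 members, all peaks of the 8 windows and all peaks of each list. Points are shares and bars are Wilson 95% intervals over peaks, with replicate 1 in orange and replicate 2 in blue. KLF and ETS shares differ between the first and second sets in opposite directions, while the GATA intervals overlap. KLF and ETS were picked after their values were seen, and no difference was tested. Peaks of 1 locus are not independent, and for Zfpm1 the first set lacks the flanks.

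The gene lists of partners and targets were chosen with earlier results of these data known. Their counts are descriptions, and a difference by lineage was not tested. Some genes, such as Klf1, stood in both the list of GATA1 partners and that of GATA1 targets. Of 20 listed partners of GATA1 and regulators of blood cells, 19 had a promoter peak in both lists, against 58.3% and 49.4% of all protein-coding genes. The exception was Ldb2. Its relative Ldb1, whose product joins the GATA1 and TAL1 complex, scored 146 in replicate 1 and 59 in replicate 2. The highest replicate 2 scores were 123 for Spi1, which encodes the GATA1 antagonist PU.1 and is known to be activated by virus insertion in Friend erythroleukemias, 102 for the corepressor gene Cbfa2t3 and 101 for Tcf3, the E-protein partner of TAL1. Their replicate 1 scores were 148, 147 and 150. Of 12 partners of GATA4, GATA5 and GATA6 in heart, gut and endoderm, 2 had a promoter peak in replicate 1 and 1 in replicate 2. The shares of all protein-coding genes were the same 58.3% and 49.4%. The partners with a peak were Smarcd3, a chromatin remodelling subunit, with 133 and 32, and Mef2c, with 38 in replicate 1 only. Those with none in either list included Nkx2-5, Tbx5, Hand2, Tbx20, Isl1, Foxa2, Sox17, Hnf4a and Cdx2.

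Of 8 partners of GATA3 in T cells and other tissues, 3 had a promoter peak in replicate 1 and 2 in replicate 2, below the 58.3% and 49.4% of all genes. Il4, a T helper cytokine gene, scored 135 and 55, the estrogen receptor gene Esr1 scored 136 and 53, and Tcf7 scored 74 in replicate 1 only. Bcl11b, Lef1, Notch1, Cd3e and Tfap2a had none in either list. Known targets of GATA1 in red cell precursors had a promoter peak in 17 of 19 cases in replicate 1 and 14 of 19 in replicate 2, against the same 58.3% and 49.4%. The highest replicate 2 scores were 106 for the erythropoietin receptor gene Epor, 84 for Klf1 and 80 for the blood group gene Kel, with 149, 140 and 144 in replicate 1. Kit, a stem cell factor receptor gene repressed by GATA1, and Slc4a1 had no promoter peak in either list. Alas2, Hbb-bs and Hba-a1 had one in replicate 1 only, with 85, 103 and 71. Another listed globin gene, Hbb-bt, had a promoter peak in both lists, with 128 in replicate 1 and 40 in replicate 2. The globin genes have near-identical copies, and whether reads were lost there was not tested.

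Among all protein-coding genes, those most like Gata1 in the percentile of promoter score and window peaks, over both lists, were Myl6, Fth1 and Serinc3. Myl6 and Fth1 each scored 142 and 72 with 90 and 32 window peaks. Those most like Gata2 were Rrad, Gkap1 and Dlg2, with promoter scores of 116, 120 and 103 in replicate 1 and 16, 23 and 16 in replicate 2. Likeness was the sum of the absolute percentile differences over 4 measures and says nothing of shared control.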

How the data were processed

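DNase-seq peaks of MEL cells were analysed as deposited, on mm10 per the labels. The peak score is the authors' deposited score, and what it counts is not stated in the labels. In the hotspot files the authors deposited a −log10 q-value (the usual meaning of that column), which was not used; hotspots served as regions. The aligner, the peak caller and the sequencing depth are not given in the sources used here. Peak centres were compared with GENCODE M21 basic transcripts, which are on the same build as the GRCm38 reference, and the full annotation supplied the other starts. Shared peaks overlapped by at least 1 bp. Peaks on the mitochondrial genome and unplaced contigs were left out of gene and motif work.

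Motifs were searched on both strands in 150 bp around the centre, and motif matches are descriptions of letters, not shown binding sites. The E-box composite contains a GATA motif, so these categories overlap. Shares carry Wilson 95% intervals, which cover counting error over peaks only. All 8 members were named, as were their 3 highest replicate 2 peaks outside other genes, peaks within 1 kb of known elements, and, from each gene list, genes without a promoter peak and the 3 highest in replicate 2. Other peaks near a start were named after their values were seen. The members, gene lists and known elements were chosen with earlier results of these data known. Of the 20 listed targets 19 were found in the annotation, and Ahsp was not found under that symbol. A listed gene without its own value in the text is not reported here. Code was tested on simulated data. Analyses used Python 3.11.15, numpy 2.4.6, pandas 2.3.3, pysam 0.24.0 and matplotlib 3.10.9. Alternatives were other promoter widths and flanks, the first start of each gene, hotspots, higher-scoring peaks, equal list lengths, and other motif windows and letters.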

Additional observations from a re-analysis of the deposited data

How the results depend on the processing

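Over 54 alternatives of 10 results, 29 values stayed within 1.5 times the main count or within the Wilson interval of the main share. The counts of members and partner genes with a promoter peak were among them under every alternative tried. For members in replicate 2 the count was 2 with the higher-scoring 50% of each list, where Gata2 was lost, and 4 within 2500 bp or with hotspots. Both lie within 1.5 times the main count of 3, so the limit says little for so small a count. For partner genes in replicate 2 the count was 19, and 16 with the first start of each gene only. Window counts moved with their definition. In replicate 1, Gata1 and Gata2 had 149 peaks, which became 96 with a flank of 50 kb, 63 with 20 kb, 96 without other genes, 83 with the higher-scoring 50% and 55 at equal list length. Gata4, Gata5 and Gata6 had 113, which became 47, 25, 72, 48 and 28. In replicate 2, Gata1 and Gata2 had 54, which became 30, 16, 32 and 31 under the first 4 of these. Gata4, Gata5 and Gata6 had 31, which became 15 at 50 kb, 8 at 20 kb and 15 with the higher-scoring 50%. The count for Gata1 and Gata2 was above that for Gata4, Gata5 and Gata6 in each of these cases. The GATA share of the member windows was 40.1% and 48.6% in 300 bp, 14.7% and 21.5% in 75 bp, and 21.6% and 25% for the letters GATAA. Over all peaks it was 47.8% and 48.6%, 17.5% and 20%, and 24.4% and 27.7%. In replicate 1 the share of the member windows was 31.5% with the higher-scoring 50% and 34.8% at equal list length. The share over all peaks was not computed for those 2 settings. No paired analysis was possible because no result comes from a test and each biological replicate has 1 list. The unknown depth limits what the absence of a peak shows: a site below the calling limit is not told apart from a closed one.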
